A study of Mus musculus with 6 samples.

Results

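The genes described are the mouse collagens, taken as every gene in the liver count table whose symbol is Col, a type number, the letter a and a chain number. This gave 44 genes of 40803, and 32 of the 44 had enough reads to be tested. They were sorted by collagen type into fibrillar collagens (types 1, 2, 3, 5 and 11; 9 genes), basement membrane collagens (types 4, 15 and 18; 8 genes), beaded collagen (type 6; 6 genes), skin-anchored collagens (types 7 and 17; 2 genes) and others (19 genes).

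Bulk RNA-seq of liver was compared between mice that received rAAV8-Hnf1aos1 and mice that received rAAV8-Scramble, to ask which transcripts differ when the long noncoding RNA Hnf1aos1 is reduced. All mice were male C57BL6 of approximately 6 weeks when 100 µL of virus was injected into the tail vein, and livers were taken 4 weeks later. Of 10 mice injected per group, 3 were sequenced, each library coming from a separate mouse. Both groups carry an adeno-associated virus vector of serotype 8 with a short hairpin RNA under the U6 promoter and an EGFP reporter, and they differ in the hairpin: a scrambled sequence in the controls, an exon 1 sequence of Hnf1aos1 in the knockdown. This serotype delivers mainly to hepatocytes, so that hairpin delivery to other liver cells is not given by the design. Hnf1aos1 was at 512, 491 and 620 normalized counts in the rAAV8-Scramble libraries and 278, 258 and 433 in the rAAV8-Hnf1aos1 libraries. Its groups did not overlap, and 59.8% of the control mean remained, but its log2 fold change of −0.74 did not pass the test across all genes (edgeR quasi-likelihood adjusted p = 0.0625). It passed in 1 of 6 fits that left out a single library and in 4 of 10 other alternative fits. The log2 fold change stayed between −1.01 and −0.53 in all of them. By quantitative PCR the paper reports a significant reduction of Hnf1aos1 in liver, in more mice per group than were sequenced.

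Collagens are secreted proteins whose chains, rich in glycine and proline, wind around each other into a triple helix. Fibrillar collagens I, III and V form the banded fibrils of portal tracts and of scars, and in liver they are made mainly by stellate cells and portal fibroblasts. Collagens IV, XV and XVIII belong to basement membranes, collagen VI forms beaded microfibrils, and collagens VII and XVII anchor the epidermis to the dermis. Hepatocytes themselves are known for making collagen XVIII, the precursor of endostatin.

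The libraries held 14704746 to 19462398 gene counts. The 7 hepatocyte markers that were found summed to 81302 to 94989 TPM, a unit of transcript level that is scaled by gene length and has the same total in each library, so the tissue carried its label. The common biological coefficient of variation between mice of a group was 13.9%. In bulk RNA, fewer cells of a type and less RNA per cell cannot be told apart. Pairs of libraries within a group differed by a chi-square of 7.10 to 28.7 per gene, where sampling noise alone gives about 1, so all 6 were kept as separate samples.

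Per unit of length the collagen RNA of these livers was mostly collagen XVIII. Col18a1 averaged 231 TPM over the 6 libraries and ranged from 215 to 245 TPM, which was 62.0% of the summed level of all collagens. The next levels lay far below and close together: Col14a1, a fibril-associated collagen, averaged 18.4 TPM, and the fibrillar chains Col1a1, Col3a1 and Col5a3 averaged 13.9, 13.9 and 13.6 TPM. Col27a1 at 13.1 TPM, Col4a1 at 12.3 TPM and Col4a2 at 10.3 TPM followed. From Col14a1 down to Col4a2 the ranges over libraries overlapped between neighbours. Compared within each library, Col14a1 was above Col1a1 and Col4a1 above Col4a2 in all 6. The order of the neighbours from Col1a1 to Col4a1 changed with the library. Of the 44 genes, 8 averaged 10 TPM or more and 19 averaged 1 TPM or more. Basement membrane collagens made up 70.4% of the summed level, fibrillar collagens 15.2%, beaded collagen 2.89% and skin-anchored collagens 0.8%.

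**Figure D1:**
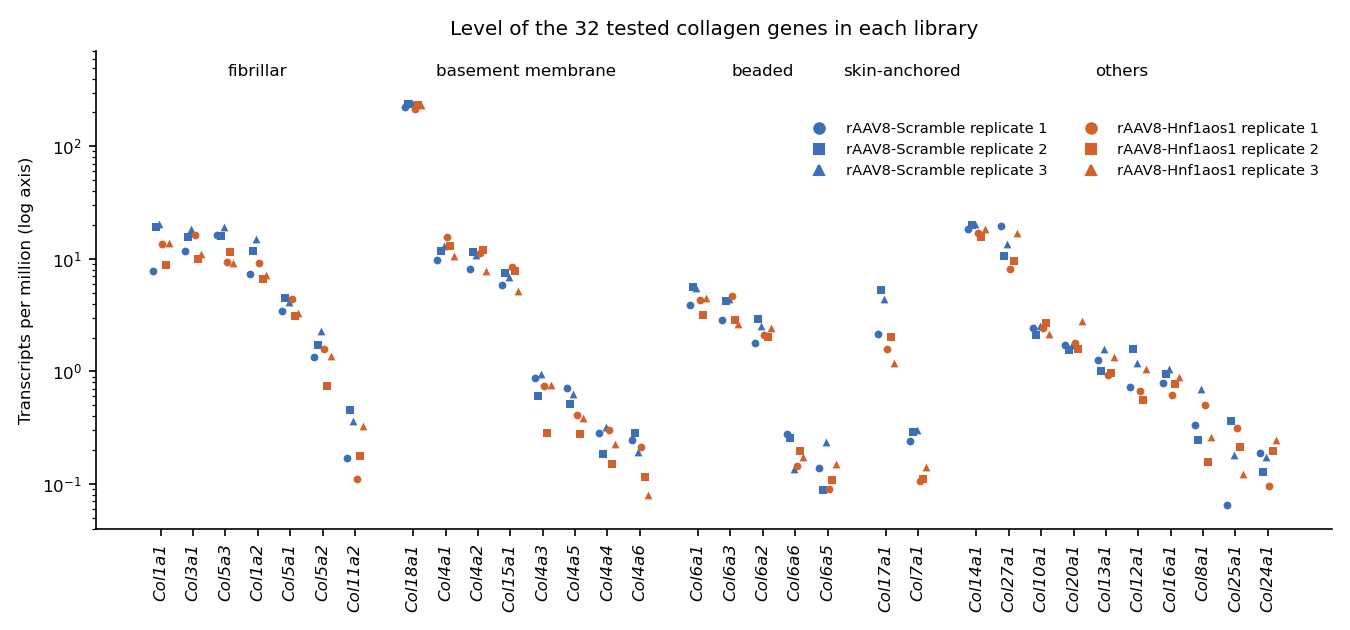
TPM of the 32 tested collagen genes (log axis), by class and in order of mean level, with 1 point per library (blue, rAAV8-Scramble; orange, rAAV8-Hnf1aos1). Col18a1 stands alone at 215 to 245 TPM, while most points of the groups are interleaved; the orange points of Col5a3, Col4a5, Col17a1 and Col7a1 all lie under the blue ones.

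A single collagen gene, Col5a3, passed the test (edgeR quasi-likelihood, adjusted p under 0.05), and it was lower in the rAAV8-Hnf1aos1 livers. This was 1 of 32 tested (3.12%), where 6.32% of all 16327 genes tested passed in either direction and 3.23% passed as lower. No collagen gene passed as higher, where 3.09% of all genes did. At an unadjusted p under 0.05, 4 of the 32 were lower (12.5%, against 11.4% of all genes) and 0 were higher (12.0% of all genes), where 23.4% of all genes reached it in either direction. The same 4 genes, Col5a3, Col17a1, Col7a1 and Col4a5, were lower without overlap between the groups (12.5%, against 13.7% of all genes), and 0 were higher without overlap (15.2% of all genes), where the groups of 28.9% of all genes did not overlap. The shares that were lower were near the background.

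The sign of the differences was less even than among all genes. Of the 32 tested collagen genes 24 had a log2 fold change below 0 (75% against 50.1% of all genes), with a median of −0.24 where the median of all genes was −0.0004, but with library sizes taken from the spike-in RNAs 16 of 31 were below 0. That scaling moved the median of all genes to 0.20 and the median of the collagen genes to −0.04, so the collagens sat under the general median on both scales. The extremes fell unevenly on the libraries: rAAV8-Scramble replicate 3 was the highest of the 6 libraries for 12 of the 32 genes and rAAV8-Hnf1aos1 replicate 2 the lowest for 11. Within its group, rAAV8-Scramble replicate 1 was the lowest for 19 of the 32. The summed collagen level was 355, 400 and 419 TPM in the rAAV8-Scramble libraries and 352, 350 and 360 TPM in the rAAV8-Hnf1aos1 libraries. The groups overlapped, because the first control library lay within the knockdown range.

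**Figure D2:**
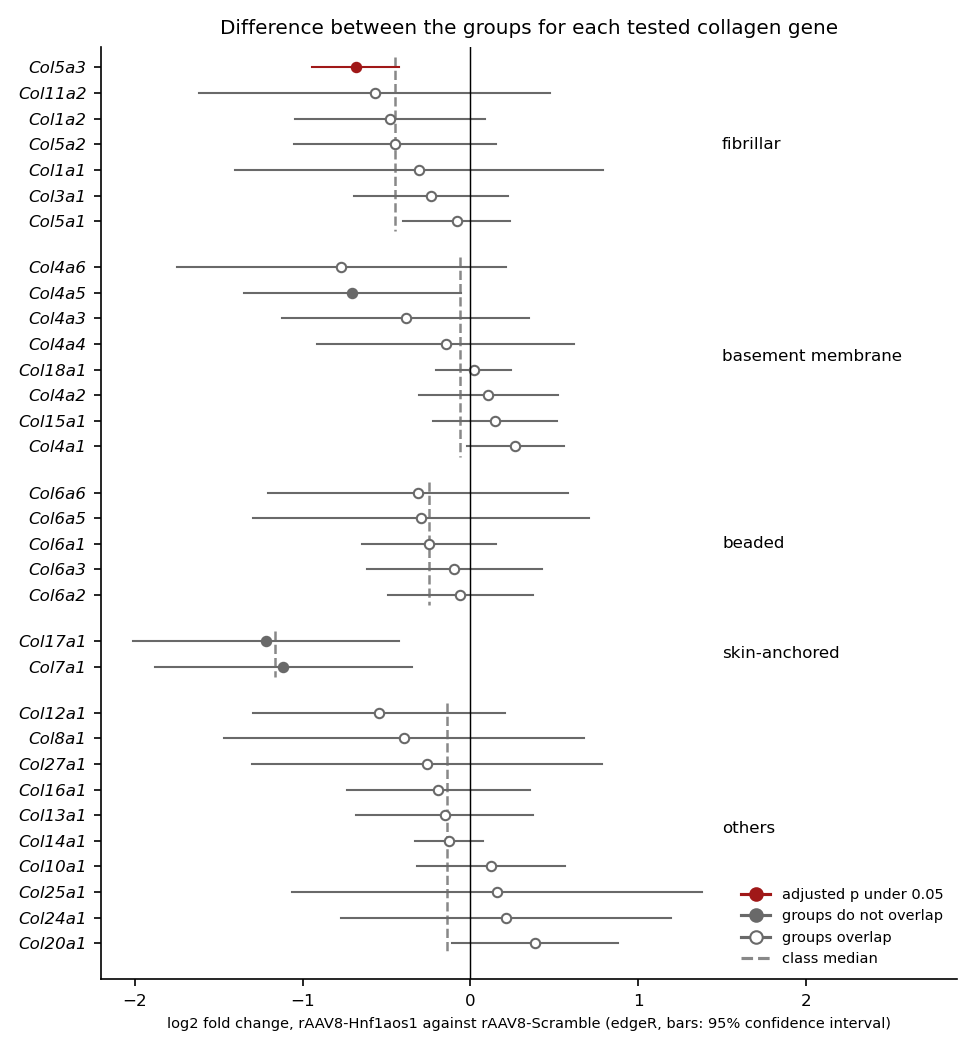
Log2 fold change of each tested collagen gene, rAAV8-Hnf1aos1 against rAAV8-Scramble, with its 95% confidence interval from edgeR, by class (filled points, genes whose groups do not overlap; red, the gene past the adjusted threshold; dashed lines, class medians). Col5a3 at −0.68, Col4a5 at −0.70, Col7a1 at −1.11 and Col17a1 at −1.22 have intervals that stay under 0.

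The sequences before the transcription start are shown for Col5a3, Col17a1 and Col7a1, the called gene and the genes with the largest differences, so that the elements near each start can be read beside the counts. They are from RefSeq on GRCm38.p6, 5′ to 3′ on the gene's strand, and end next to the start. Capitals mark the CCAAT box (letters CCAAT), the GC box (letters GGGCGG) and the TATA box (letters TATAAA), each searched on both strands, so a match on the other strand is printed as its reverse complement. Col5a3 is shown from chr9:20815068-20815317 (minus strand). Col7a1 is shown from chr9:108953336-108953585 (plus strand). Col17a1 is shown from chr19:47692095-47692292 (minus strand), where the last 52 of the 250 bases were left off because they lie in an annotated exon.
Col5a3: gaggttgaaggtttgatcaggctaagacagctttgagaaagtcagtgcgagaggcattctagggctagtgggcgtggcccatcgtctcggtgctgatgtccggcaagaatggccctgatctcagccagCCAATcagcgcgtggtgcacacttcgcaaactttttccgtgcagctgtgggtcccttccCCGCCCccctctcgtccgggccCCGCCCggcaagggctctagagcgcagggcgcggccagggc
Col17a1: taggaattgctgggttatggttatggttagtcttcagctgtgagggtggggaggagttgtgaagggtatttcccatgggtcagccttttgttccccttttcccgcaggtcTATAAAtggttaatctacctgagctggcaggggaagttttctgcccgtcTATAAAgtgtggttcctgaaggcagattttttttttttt
Col7a1: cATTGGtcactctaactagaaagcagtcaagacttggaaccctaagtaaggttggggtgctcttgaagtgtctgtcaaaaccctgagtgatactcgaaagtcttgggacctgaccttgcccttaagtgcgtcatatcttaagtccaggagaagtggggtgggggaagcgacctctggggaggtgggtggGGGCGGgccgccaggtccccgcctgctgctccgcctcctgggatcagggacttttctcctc
In the full windows of 250 bases Col5a3 held 1 CCAAT box and 2 GC boxes, and Col7a1 held 1 of each. Col17a1 held 2 TATA boxes, shown in capitals, and 1 CCAAT box in the bases left off. Of the 44 collagen genes 35 matched at least 1 promoter window, and of their 38 windows 57.9% held the GC box, where 32.7% of 32851 promoter windows of that length did. The CCAAT box was in 34.2% of collagen windows and 33.8% of all windows, the TATA box in 13.2% and 12.4%, and the AP-1 motif (letters TGANTCA) in 2.63% and 6.75%. No window was found for Col1a1, Col2a1, Col4a3, Col5a2, Col9a3, Col12a1, Col14a1, Col22a1 and Col26a1. These matches describe letters in a window and were not set against the expression values.

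Fibrillar collagens form the load-bearing fibrils of the matrix. Of the 9 genes 7 were tested and 7 had a log2 fold change below 0, where 50.1% of all genes did, with a median of −0.45. Of these 1 passed the test, where 3.23% of all genes passed as lower. With spike-in library sizes Col5a1 turned to 0.12 and 6 of 7 stayed below 0.

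Col5a3 encodes the alpha 3 chain of collagen V, a minor component of fibrils that takes part in setting their diameter. Its locus spans chr9:20770050-20815067 in the GENCODE M21 annotation of GRCm38. It was at 768, 765 and 866 normalized counts in the rAAV8-Scramble libraries and at 447, 588 and 457 in the rAAV8-Hnf1aos1 libraries. Every knockdown library lay under every control library, with means of 800 ± 57.1 and 498 ± 78.6 (SD, n = 3 each). The log2 fold change was −0.68 with a standard error of 0.117 (edgeR quasi-likelihood adjusted p = 0.00997), which left 62.2% of the control mean. Over 16 alternatives the adjusted p passed in 15, and not on leaving out rAAV8-Scramble replicate 3, where the edgeR adjusted p was 0.0786 and the log2 fold change −0.63. The change was under 1 in size on the log2 scale in all of them.

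The partner chains of collagen V did not pass the test. Col5a1, the chain common to collagen V trimers, was at 227, 297 and 262 normalized counts in the controls and 293, 218 and 232 in the knockdown, so the groups overlapped. Col5a2, the alpha 2 chain, was at 68.7, 88.9 and 112 normalized counts against 82.0, 40.9 and 74.3, also with overlap. On the TPM scale the ratio of Col5a3 to Col5a1 was 4.72, 3.58 and 4.61 in the control libraries and 2.13, 3.77 and 2.75 in the knockdown libraries. The ratio overlapped between the groups through rAAV8-Hnf1aos1 replicate 2, so the difference between these chains was not shown beyond the spread.

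Collagens I and III, the bulk of scar and portal fibrils, varied widely among the control mice. Col1a1, the alpha 1 chain of collagen I, was at 357, 887 and 904 normalized counts in the rAAV8-Scramble libraries and 628, 430 and 673 in the rAAV8-Hnf1aos1 libraries. The lowest and the highest values were both control libraries, and the log2 fold change of −0.31 had an interval from −1.41 to 0.79. Col1a2, the chain that pairs with it, was at 295, 479 and 583 against 375, 287 and 312 (log2 fold change −0.48, edgeR adjusted p = 0.284). Without rAAV8-Scramble replicate 1 the value for Col1a2 was −0.71 with an edgeR adjusted p of 0.0269, so 1 control library decided that call. Col3a1, the fibril collagen mixed with collagen I, was at 507, 689 and 768 against 702, 459 and 507 normalized counts, again with overlap (log2 fold change −0.23). The ratio of Col1a1 to Col1a2 on the TPM scale ran from 1.06 in rAAV8-Scramble replicate 1 to 1.90 in rAAV8-Hnf1aos1 replicate 3. In the assembled protein the alpha 1 chain outnumbers the alpha 2 chain, and in each of the 6 libraries the Col1a1 level was above that of Col1a2.

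Col11a2, a chain of the cartilage collagen XI, had 7 to 25 counts per library and a log2 fold change of −0.57 (95% interval −1.61 to 0.47). The summed level of the 9 fibrillar genes was 48.0, 69.4 and 80.1 TPM in the control libraries and 54.5, 41.0 and 46.3 TPM in the knockdown libraries. The ratio of means was 0.719, and it ran from 0.633 to 0.806 when single libraries were left out. The overlap came from rAAV8-Scramble replicate 1, whose fibrillar collagen level lay inside the knockdown range.

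**Figure D3:**
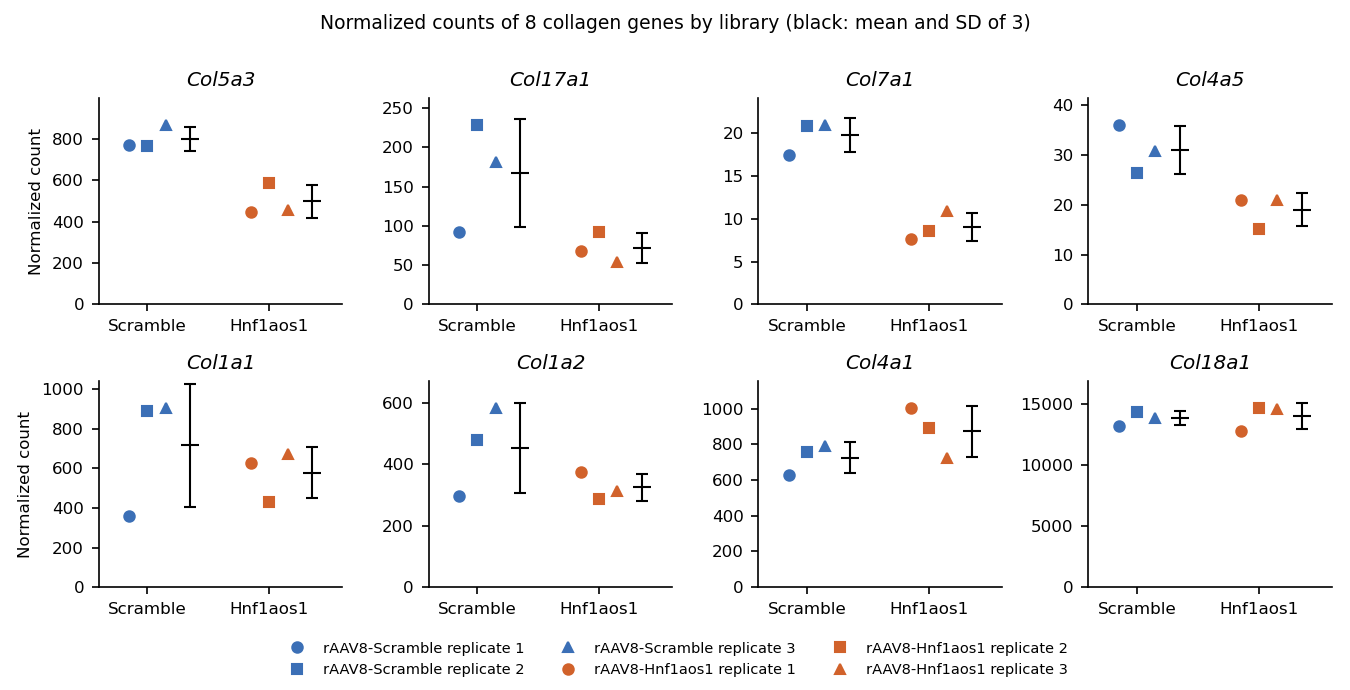
Normalized counts of 8 collagen genes in each library (1 point per mouse, counts scaled by TMM library sizes), with the mean and SD of 3 libraries per group in black. The top row holds the 4 genes whose groups do not overlap; in the bottom row the control values of Col1a1 run from 357 to 904 and Col18a1 is at about the same height in all libraries.

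The skin-anchored collagens had the largest differences by size. Both genes were below 0 under each alternative that held them, neither passed the test, and 6.25% of the tested collagens (2 of 32) against 4.78% of all genes reached a log2 fold change of 1 in size. Col17a1 encodes the transmembrane collagen of hemidesmosomes and lies at chr19:47646344-47692094 on GRCm38. It was at 92.3, 228 and 181 normalized counts in the rAAV8-Scramble libraries and 68.7, 92.2 and 54.3 in the rAAV8-Hnf1aos1 libraries. The groups were parted only by 92.3 against 92.2, since rAAV8-Scramble replicate 1 lay near the knockdown values. The log2 fold change was −1.22 with a standard error of 0.342 (edgeR adjusted p = 0.0789).

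The call for Col17a1 depended on the fit. Among the alternatives without a replicate block, it passed with DESeq2 (adjusted p = 0.00177) and without rAAV8-Scramble replicate 1 (edgeR adjusted p = 0.00814). Over the 16 alternatives its adjusted p ran up to 0.243, at the omission of rAAV8-Scramble replicate 3. The log2 fold change stayed between −1.51 and −0.88 throughout.

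Col7a1 encodes the anchoring fibril collagen under the epidermis and lies at chr9:108953586-108984875 on GRCm38. It was at 17.4, 20.9 and 20.9 normalized counts in the controls and 7.63, 8.55 and 10.9 in the knockdown. The groups did not overlap, but the counts behind these values were only 8 to 19 reads per library, and the log2 fold change of −1.11 (standard error 0.350) had an edgeR adjusted p of 0.0829. The summed level of both genes was 2.40, 5.57 and 4.73 TPM in the control libraries and 1.70, 2.13 and 1.34 TPM in the knockdown libraries, a ratio of means of 0.408. It ran from 0.335 to 0.484 when single libraries were left out.

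Markers of keratinocytes and skin were set beside these genes. All 9 were below 0, where 50.1% of all genes were, and 5 passed as lower, where 3.23% of all genes did. The 5 were Krt5, Krt14, Krt10, Trp63 and Dsg3, named here after their values were seen. Krt5, Krt14 and Krt10 passed in all 16 alternatives, Trp63 in 15 of 16 and Dsg3 in 12 of 15. None of the 9 was at 0 in any library, and 8 were lower without overlap between groups, where 13.7% of all genes were. Their summed level was 98.3 to 111 TPM in the controls and 50.8 to 52.0 TPM in the knockdown. Dsp, a desmosome gene that hepatocytes also express, made up a large part of that sum, and without it the sums were 63.2, 70.5 and 56.9 TPM against 18.7, 23 and 19.9 TPM. The 9 skeletal muscle markers were also all below 0, with 1 passing as lower (Actn3, likewise named after its value was seen), at 63.9, 224 and 139 TPM against 72.3, 57.6 and 25.3 TPM. The call of Actn3 was lost in 5 of 16 alternatives. The part of either tissue in the Col17a1 and Col7a1 values was not tested.

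The basement membrane collagens, the largest class by level, showed no called member. All 8 genes were tested, 4 were below 0 and 4 above, with a median of −0.06. Col18a1, Col4a1, Col4a2 and Col15a1, with 251 reads or more in every library, were above 0. Col4a3, Col4a4, Col4a5 and Col4a6, with 61 reads or fewer, were below 0. Only the 95% interval of Col4a5 left out 0, and the signs of Col18a1, Col4a2 and Col4a4 turned in some alternatives.

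Col18a1, which encodes a collagen of vascular and epithelial basement membranes that hepatocytes also make, was at 13236, 14368 and 13893 normalized counts in the controls and 12782, 14682 and 14592 in the knockdown. The groups were interleaved, and the 95% interval of its log2 fold change, −0.20 to 0.24, leaves out a change of 1 on the log2 scale in either direction. Its value of 0.02 took the other sign with library totals (−0.05) and on the TPM scale (−0.06), which is within that interval. Col15a1, its relative in vascular basement membranes, was at 258, 333 and 286 against 368, 361 and 241 normalized counts, with overlap (log2 fold change 0.15).

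Col4a1 and Col4a2 encode the chains of the collagen IV network found in nearly all basement membranes, and sit head to head on chromosome 8, where their annotated first exons share 22 bases (Col4a1 chr8:11198423-11312826, Col4a2 chr8:11312805-11449287). Col4a1 was at 627, 756 and 792 normalized counts in the rAAV8-Scramble libraries and 1003, 893 and 721 in the rAAV8-Hnf1aos1 libraries. The highest values were knockdown libraries, but replicate 3 of that group lay within the controls (log2 fold change 0.27, edgeR adjusted p = 0.25). It passed as higher without rAAV8-Hnf1aos1 replicate 3 (edgeR adjusted p = 0.0471) and with spike-in library sizes (edgeR adjusted p = 0.0309). Col4a2 was at 405, 587 and 519 against 569, 642 and 416 normalized counts, with overlap (log2 fold change 0.11). The ratio of Col4a1 to Col4a2 on the TPM scale was 1.21, 1.01 and 1.2 in the controls and 1.38, 1.09 and 1.36 in the knockdown.

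Col4a3, Col4a4, Col4a5 and Col4a6 encode chains of more restricted networks, such as those of the kidney glomerulus and of smooth muscle. Col4a3 was at 60.5, 42.8 and 63.8 against 51.5, 20.9 and 55.2 normalized counts, and its neighbour Col4a4 at 23.6, 15.4 and 25.3 against 24.8, 13.3 and 19.9. Both overlapped, and in both replicate 2 was the lowest library of each group. Col4a5 was at 35.9, 26.3 and 30.8 normalized counts in the controls and 21.0, 15.2 and 20.8 in the knockdown, without overlap (log2 fold change −0.70, edgeR adjusted p = 0.176). Its neighbour Col4a6, in the opposite orientation on the X chromosome (chrX:141165403-141474076, beside Col4a5 at chrX:141475385-141689234), was at 13.3, 15.4 and 9.90 against 11.4, 6.65 and 4.53, with overlap. The Col4a6 libraries held 5 to 14 reads, so its log2 fold change of −0.77 came with an interval from −1.75 to 0.21.

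Collagen VI forms beaded microfibrils around cells, and 5 of its 6 genes were tested. All 5 were below 0, where 50.1% of all genes were, with a median of −0.25, and none passed. But with spike-in library sizes 2 of 4 were below 0. Col6a1 was at 121, 177 and 163 normalized counts in the controls and 134, 105 and 148 in the knockdown. Col6a3, the longest chain of the trimer, was at 242, 359 and 353 against 397, 259 and 236. Both overlapped, with rAAV8-Scramble replicate 1 as the lowest control in each. The log2 fold changes were −0.25 for Col6a1 and −0.10 for Col6a3, while Col6a2, Col6a5 and Col6a6 ran from −0.31 to −0.06. The summed level was 9.02, 13.1 and 12.8 TPM against 11.4, 8.42 and 9.93 TPM.

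Among the other 19 genes 10 were tested, 6 below 0 and 4 above, with a median of −0.14 and no call. Col14a1, which coats the surface of fibrils, was at 1026, 1123 and 1086 normalized counts in the controls and 949, 926 and 1087 in the knockdown. Its spread was small, and its interval of −0.33 to 0.08 leaves out a change of 1 on the log2 scale. Col27a1, a fibrillar-like collagen of cartilage, was at 1318, 720 and 857 against 544, 678 and 1200 normalized counts. The highest values came from 1 library of each group, rAAV8-Scramble replicate 1 and rAAV8-Hnf1aos1 replicate 3, and the interval from −1.30 to 0.78 was wide. The other 8 tested genes ran from a log2 fold change of −0.54 (Col12a1, a fibril-associated collagen of tendon and ligament) to 0.39 (Col20a1), with unadjusted p-values of 0.116 or more from edgeR.

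The 12 genes that were not tested were Col2a1, Col11a1, Col6a4, Col8a2, Col9a1, Col9a2, Col9a3, Col19a1, Col22a1, Col23a1, Col26a1 and Col28a1. Of these, 9 had no more than 3 counts in any library, and Col6a4 and Col9a1 were at 0 in all 6. The chains of the cartilage collagens II and IX, Col2a1 and Col9a1 to Col9a3, were all in this set. Col11a1, with 2, 10 and 5 counts in the controls and 0, 0 and 3 in the knockdown, Col8a2, with 3 to 9 counts, and Col23a1, with 3 to 17 counts, were over 3 counts in at least 1 library. Col19a1, with 2, 1 and 3 counts against 0, 0 and 0, was lower without overlap, at or under 3 counts throughout. Without the filter on low counts 42 of the 44 collagen genes entered the fit, and Col5a3 was the gene that passed. Of the 27496 genes in that fit 1902 passed, 1032 of them as lower.

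Cells known to make the fibrillar collagens were followed by their markers. Among all genes tested, 50.1% were below 0 and 3.23% passed as lower. The signs of the markers are from TMM library sizes, and spike-in library sizes moved the median of all genes to 0.20. Of the 12 quiescent stellate cell markers 8 were below 0 and 0 passed (edgeR unadjusted p under 0.05 for 1), with summed levels of 174 to 196 TPM in the controls and 143 to 187 TPM in the knockdown. For activated stellate cells and myofibroblasts 7 of 10 markers were tested, 6 were below 0 and Postn passed as lower, at 39.5 to 62.8 TPM against 32.8 to 40.4 TPM. For portal fibroblasts 8 of 9 were tested, 7 were below 0 and Gas1, named after its value was seen, passed as lower. The portal fibroblast sum was 25.4, 37.0 and 35.8 TPM in the controls and 19, 17.6 and 18.6 TPM in the knockdown, without overlap. The sums of the sinusoidal endothelial, macrophage and cholangiocyte markers, given below, did not overlap either. Among all genes tested, the groups of 28.9% did not overlap. In the controls the portal fibroblast sum, both stellate cell sums and the fibrillar collagen sum were all lowest in replicate 1. This order was not particular to these cells. The skeletal muscle markers and the skin-anchored, beaded and basement membrane collagens were also lowest there, and the macrophage and hepatocyte markers highest. None of the markers in these 3 lists was at 0 in all libraries, though Timp1 was at 0 in 4 and Tagln in 1. The part of these cells in the collagen values was not tested.

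The markers of other liver cells gave these values, to be read beside all genes tested. There, 50.1% were below 0, 3.09% passed as higher and 3.23% as lower. Signs here are also from TMM library sizes, with the same limit. Of the 10 sinusoidal endothelial markers 9 were below 0 and 0 passed (0 at an edgeR unadjusted p under 0.05), at 227 to 233 TPM against 182 to 219 TPM. All 10 macrophage and Kupffer cell markers were above 0 and 4 passed as higher, C1qa, C1qb, Clec4f and Adgre1, at 221 to 266 TPM against 269 to 349 TPM. Of 16 alternatives C1qa passed in 10, Clec4f in 9, C1qb in 5 and Adgre1 in 4. All 7 hepatocyte markers were above 0, and Fgb passed as higher. Of 8 cholangiocyte markers 5 were tested, 3 above 0 and 2 below. Their list summed to 34.4 to 40.4 TPM in the controls and 184, 47.8 and 48.7 TPM in the knockdown. The value of 184 TPM came from rAAV8-Hnf1aos1 replicate 1 alone. Of 6 mesothelial markers 2 were tested, both above 0, at 1.06 to 4.25 TPM against 2.85 to 3.68 TPM. Neither list held a call or an edgeR unadjusted p under 0.05. The genes named from these lists were chosen after their values were seen, and the part of these cells in the collagen values was not tested.

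**Figure D4:**
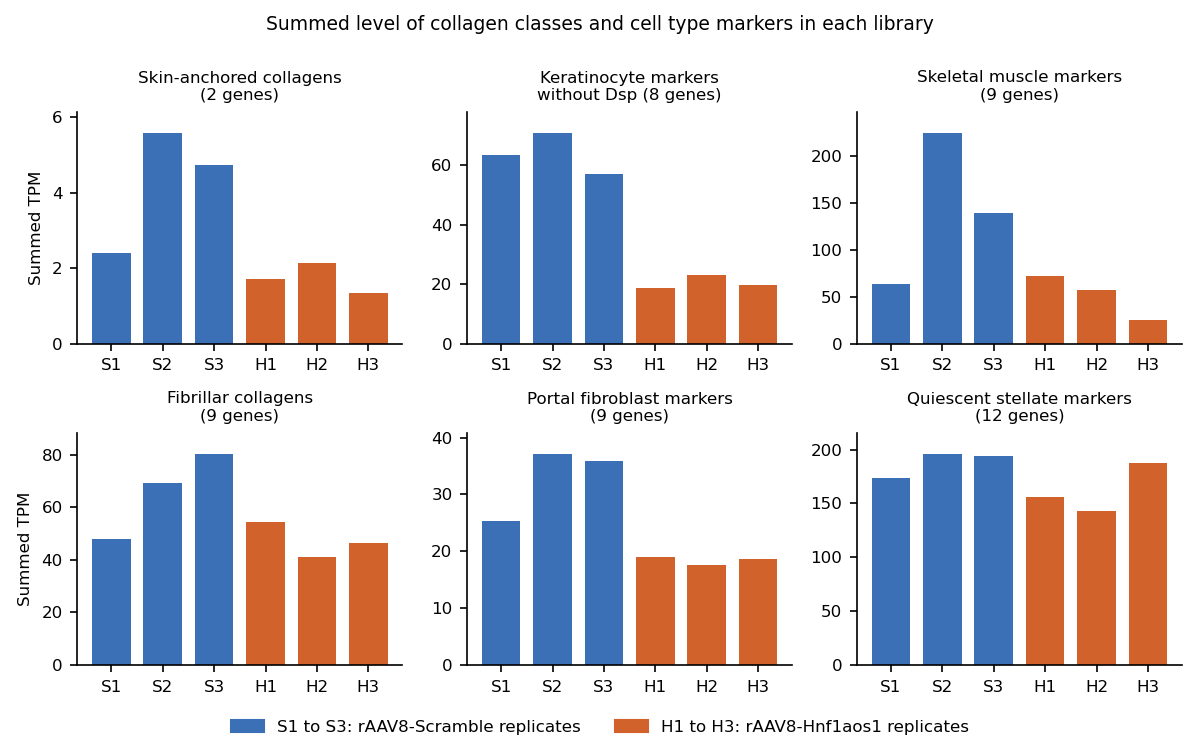
Summed TPM in each library for the skin-anchored and fibrillar collagens and for 4 marker lists (bars from 0, blue rAAV8-Scramble, orange rAAV8-Hnf1aos1, 1 bar per mouse). The skin-anchored collagens (1.34 to 5.57 TPM), the keratinocyte markers without Dsp and the portal fibroblast markers do not overlap between groups, whereas the fibrillar collagens, the skeletal muscle markers and the quiescent stellate markers do.

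The genes that build and use collagen were followed in 7 lists in the order of a chain's life. Among all genes tested, 3.09% passed as higher, 3.23% passed as lower and 23.4% had an edgeR unadjusted p under 0.05. Chain modification and folding takes place in the endoplasmic reticulum, where prolines and lysines are hydroxylated and chaperones hold the chains. Of 24 genes 22 were tested, 12 above 0 and 10 below, and 1 passed as higher and 0 as lower. The called gene was Sec24d, a coat protein of the vesicles that carry procollagen out of the reticulum, at 2855, 2476 and 2577 normalized counts in the controls and 3631, 3325 and 3308 in the knockdown. The groups did not overlap (log2 fold change 0.38, edgeR adjusted p = 0.0392), and the call was lost in 9 of the 16 alternatives.

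Processing and cross-linking enzymes trim the ends of procollagen and join the fibrils by lysine bridges. Of 14 genes 12 were tested, 4 above 0 and 8 below, and none passed (0 at an unadjusted p under 0.05). The lowest p-values were those of Bmp1, the procollagen C-proteinase, with a log2 fold change of −0.16 (edgeR adjusted p = 0.366), and of Sparc, a collagen-binding matrix protein, with −0.21 (edgeR adjusted p = 0.4). With spike-in library sizes the sign of Bmp1 turned to 0.04.

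Enzymes of collagen breakdown and their inhibitors gave no call either. Of 17 genes 12 were tested, 4 above 0 and 8 below, with 1 at an unadjusted p under 0.05. Mmp2, a gelatinase of stellate cells, was at 73.9, 90.0 and 109 normalized counts in the controls and 58.2, 48.5 and 57.1 in the knockdown, without overlap (log2 fold change −0.73, edgeR adjusted p = 0.0583). Timp2, an inhibitor that also takes part in Mmp2 activation, was at 206, 378 and 357 against 263, 221 and 227, with overlap (edgeR adjusted p = 0.291).

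Of 11 collagen receptors 9 were tested, 3 above 0 and 6 below, and 0 passed while 3 had an unadjusted p under 0.05. Itga2, the collagen-binding integrin chain of platelets and epithelia, was at 56.4, 58.2 and 49.5 normalized counts in the controls and 29.6, 39.0 and 25.4 in the knockdown. Ddr1, a receptor tyrosine kinase of epithelia that binds collagen, was at 58.5, 72.4 and 69.3 against 42.9, 44.7 and 26.3. Neither overlapped between groups, and both had log2 fold changes of −0.81, with edgeR adjusted p-values of 0.0753 and 0.0755.

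Among the 12 fibril-associated matrix proteins 3 were above 0 and 9 below, and 1 passed as lower. Postn, a matricellular protein that promotes collagen cross-linking, was at 174, 199 and 200 normalized counts in the controls and 132, 138 and 133 in the knockdown, a log2 fold change of −0.51 (edgeR adjusted p = 0.0398). Its groups did not overlap, and the call was lost in 8 of the 16 alternatives.

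The 16 partners of collagen IV in basement membranes were mostly of 1 sign, with 14 below 0 and 2 above. Of all genes 50.1% were below 0. These signs are from TMM library sizes, and spike-in library sizes moved the median of all genes to 0.20. Among the partners that passed as lower was Nid2, where the 8 collagens of that class held no call. Nid2, a nidogen that links laminin to collagen IV, was at 405, 355 and 416 normalized counts in the controls and 249, 293 and 267 in the knockdown (log2 fold change −0.54, edgeR adjusted p = 0.0205). Its groups did not overlap, and the call was lost in 3 of 16 alternatives.

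The TGF-beta pathway, the main inducer of collagen genes in stellate cells, gave 9 genes above 0 and 7 below of 16, and none passed (edgeR unadjusted p under 0.05 for 2). Smad3, which carries the signal to the nucleus, was at 630, 567 and 628 normalized counts in the controls and 398, 511 and 507 in the knockdown (log2 fold change −0.37, edgeR adjusted p = 0.0784). Tgfbr2, the receptor that binds the ligand, was at 565, 586 and 576 against 1265, 885 and 667, so every knockdown library was higher (log2 fold change 0.70, edgeR adjusted p = 0.103). The median log2 fold changes of the 7 lists, in the order given, were 0.04, −0.12, −0.15, −0.26, −0.20, −0.25 and 0.03, beside −0.24 for the collagen genes and −0.0004 for all genes.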

How the data were processed

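RNA-seq of liver from 6 mice, 3 per group, was analysed from the tables the authors deposited. Per the methods, Trimmomatic removed adapters, STAR placed the reads on the genome and featureCounts took those that mapped once within exons, which gave the whole-number counts the authors deposited. The deposited TPM values are scaled by gene length, and how the authors computed them is not given in the sources used here. The methods name GRCm38 and the labels GRCm39. The count table holds symbols without coordinates, so positions here are those of GENCODE M21 on GRCm38. The methods describe poly(A) selection with a stranded kit and the labels rRNA depletion, and the strand setting of the counting is not given in the sources used here, so reads of genes that overlap on opposite strands (22 bases for Col4a1 and Col4a2, 31.8% of Hnf1aos1 exon bases) cannot be told apart. The authors' normalized counts and their own table of fold changes and p-values were not used.

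The 92 spike-in rows of 40895 were left out, and 40803 genes remained. Scaling (TMM), filtering (filterByExpr, minimum count 10 and total 15) and testing (robust quasi-likelihood) were done in edgeR 4.0.16 under R 4.3.3, and p-values were adjusted by Benjamini-Hochberg across the 16327 genes kept, with calls under 0.05. Normalized counts are counts scaled to the TMM library size. The confidence level of intervals is 95%. With 3 against 3 no exact permutation test can go below 0.1, and none is given. Fits were tested on simulated data. DESeq2 1.42.0, limma 3.58.1 (voom, and log2 of TPM with 0.1 or 1 added), other scalings and filters, a replicate block and the omission of each library were the alternatives. Figures used matplotlib 3.10.9. Gene totals of 14704746 to 19462398 put most uncertainty of well-expressed genes on the spread between mice. Promoter windows came from RefSeq.

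The collagen genes, gene lists, markers and tests were chosen with earlier results of these data known. In each class the 2 genes with the highest mean TPM, every gene called or with a log2 fold change of 1 or more in size, and the collagen IV neighbours were given library by library. From each list of partners every called gene, or otherwise the 2 with the lowest p, was named, except for a result that is not reported here.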

Additional observations from a re-analysis of the deposited data

How the results depend on the processing

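The number of collagen genes passing, 1 of 32, was 2 with DESeq2 and with a replicate block (Col17a1 added, edgeR adjusted p = 0.0395 under the block) and with spike-in library sizes (Col4a1 added, as higher), and 0 with a log2 fold change beyond 1 required as well. It ran from 0 to 3 when single libraries were left out, with 0 without rAAV8-Scramble replicate 3, 3 without rAAV8-Scramble replicate 1 and 2 without rAAV8-Hnf1aos1 replicate 3. Same-numbered libraries did not deviate together (correlations from −0.0226 to 0.0231), so the numbers were not taken as pairs. The count over all genes, 1032, was 3393 with spike-in sizes (89.4% of them higher, against 48.9%), 1902 without a filter, 594 and 641 on log2(TPM + 0.1) and log2(TPM + 1) (33.7% and 31.8% higher), 352 with a log2 fold change beyond 1, 1048 with library totals (30.5% higher) and 103 (rAAV8-Scramble replicate 3) to 1881 (rAAV8-Hnf1aos1 replicate 3) without single libraries, each of the 6 moving it by over 1.5 times. The count over the partner lists, 4, was 10 with spike-in sizes, 12 without a filter, 2 at a mean count of at least 50, 1 with a log2 fold change beyond 1 and 0 to 10 without the same 2 libraries, each of the 6 moving it by over 1.5 times. The causes were not tested.

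Class medians moved with spike-in sizes to 0.14 for basement membrane, 0.026 for beaded, 0.064 for others and −0.037 for all collagen genes, beside 0.20 for all genes. The basement membrane median was 0.10 at a mean count of at least 50, with fewer genes in the fit, and the skin-anchored median was −0.54 on log2(TPM + 1), where the added 1 exceeds the level of Col7a1. Under spike-in sizes these signs turned: Col5a1 0.12, Col4a4 0.057, Col6a2 0.14, Col6a3 0.10, Col13a1 0.053, Col14a1 0.074, Col16a1 0.0099 and Bmp1 0.039. Col18a1 turned to −0.053 with library totals, −0.013 at a mean count of at least 50 and −0.059 on both TPM scales. Leaving out single libraries gave signs on both sides of 0 for Col5a1 (−0.23 to 0.015), Col4a2 (−0.029 to 0.27), Col4a4 (−0.37 to 0.062), Col18a1 (−0.012 to 0.074), Col6a2 (−0.22 to 0.115), Col6a3 (−0.37 to 0.049), Col6a5 (−0.56 to 0.086), Col8a1 (−0.91 to 0.10), Col24a1 (−0.090 to 0.51), Col25a1 (−0.27 to 0.90) and Col27a1 (−0.66 to 0.038). Over the 32 tested collagen genes, 293 of 307 values under other settings and 172 of 192 without single libraries kept sign and side of the threshold. The replicate block changed no other collagen call. Depth limits the low genes, since 13 of the 32 tested averaged under 1 TPM. The cause of these shifts was not tested.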
